A study of Sus scrofa with 48 samples.

Results

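Cytochrome P450 enzymes were read in pig liver through every non-control probe of the array whose gene name had the form of a CYP gene (CYP, a family number and a subfamily letter). CYP51A1, CYP7A1, CYP8B1 and CYP27A1, the main cholesterol and bile acid enzymes of the superfamily, were left out by this rule. It took 94 probes of 38 genes from 60305 non-control probes, on names and not on measured values. Liver RNA came from 48 purebred Large White barrows, with 1 array per pig and no pooling. The low RFI line (RFIneg) and the high RFI line (RFIpl) had been divergently selected over 8 generations for residual feed intake (RFI), the part of feed intake not explained by growth and body composition. In each line, 12 pigs received a diet with high fat and high fiber contents (HF) and 12 a diet with low fat and low fiber contents (LF), ad libitum from 74 days of age, and all were killed at about 19 weeks of age, 2 h after a last meal. The lines come from 1 selection experiment, so selection for RFI and chance differences between the lines cannot be told apart.

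Cytochromes P450 are heme enzymes that insert 1 atom of oxygen into their substrates with electrons passed on by cytochrome P450 reductase (POR), cytochrome b5 or, in mitochondria, ferredoxin. In hepatocytes, the CYP1, CYP2 and CYP3 families oxidise drugs, plant compounds and other foreign chemicals as well as steroids, and the CYP4 family oxidises fatty acids at the end of their chain. Other members activate or inactivate vitamin D, retinoic acid, oxysterols and steroid hormones. The nuclear receptors NR1I2 (PXR) and NR1I3 (CAR) and the aryl hydrocarbon receptor (AHR) are known to control the transcription of many of them, and several are most abundant in hepatocytes near the central vein.

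Of the 94 probes, 78 from 32 genes were well above background on at least 12 arrays and were tested, together with 45158 other probes. On every one of the 48 arrays, 72 of the 78 were above background. The other 16 probes were well above background on 7 arrays at most. They were the single probes of CYP1B1, CYP19A2, CYP27B1 and CYP2U1, all 4 probes of CYP19A3, both probes of CYP4B1, and 2 probes each of CYP11A1, CYP17A1 and CYP21A2. CYP2B6, CYP2J2 and CYP3A5 matched no probe name and were not analysed here. All values below are log2 intensities relative to the median of the array (log2 relative intensity), and a value of one probe is not compared with the value of another, since brightness depends on the probe. Median intensity per array was 53.04 to 126, and the arrays correlated at r = 0.974 to 0.990 over the tested probes. The 6 slides held 2 arrays of each group, and the 2 scan days 6 of each, so that slide and scan day were balanced over lines and diets.

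A probe was called for line or diet at P under 0.01 in limma's two-way fit with a fold change (FC) above 1.1. For line, 6.91% of all tested probes were called, and 11 of the 78 P450 probes (14.1%) were called. These 11 probes belonged to 6 genes, and some overlap in sequence, so they are not 11 separate readings. A gene with several probes also has more chances of a call. Low RFI pigs over-expressed CYP4F2 and CYP20A1 and under-expressed CYP3A29 and CYP26A1. CYP24A1 was lower through 1 of its 5 probes, and CYP1A2 had 1 probe in each direction. In all, 4 probes were higher and 7 lower in the low RFI line, whereas over all tested probes 3.42% were higher and 3.49% lower. With a Benjamini-Hochberg (BH) limit of 5%, 10 P450 probes were called, against 3.93% of all tested probes. The median line difference was 0.02 over the P450 probes and 0.01 over all tested probes. In bulk liver, fewer cells of a type and less RNA per cell cannot be told apart.

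**Figure D1:**
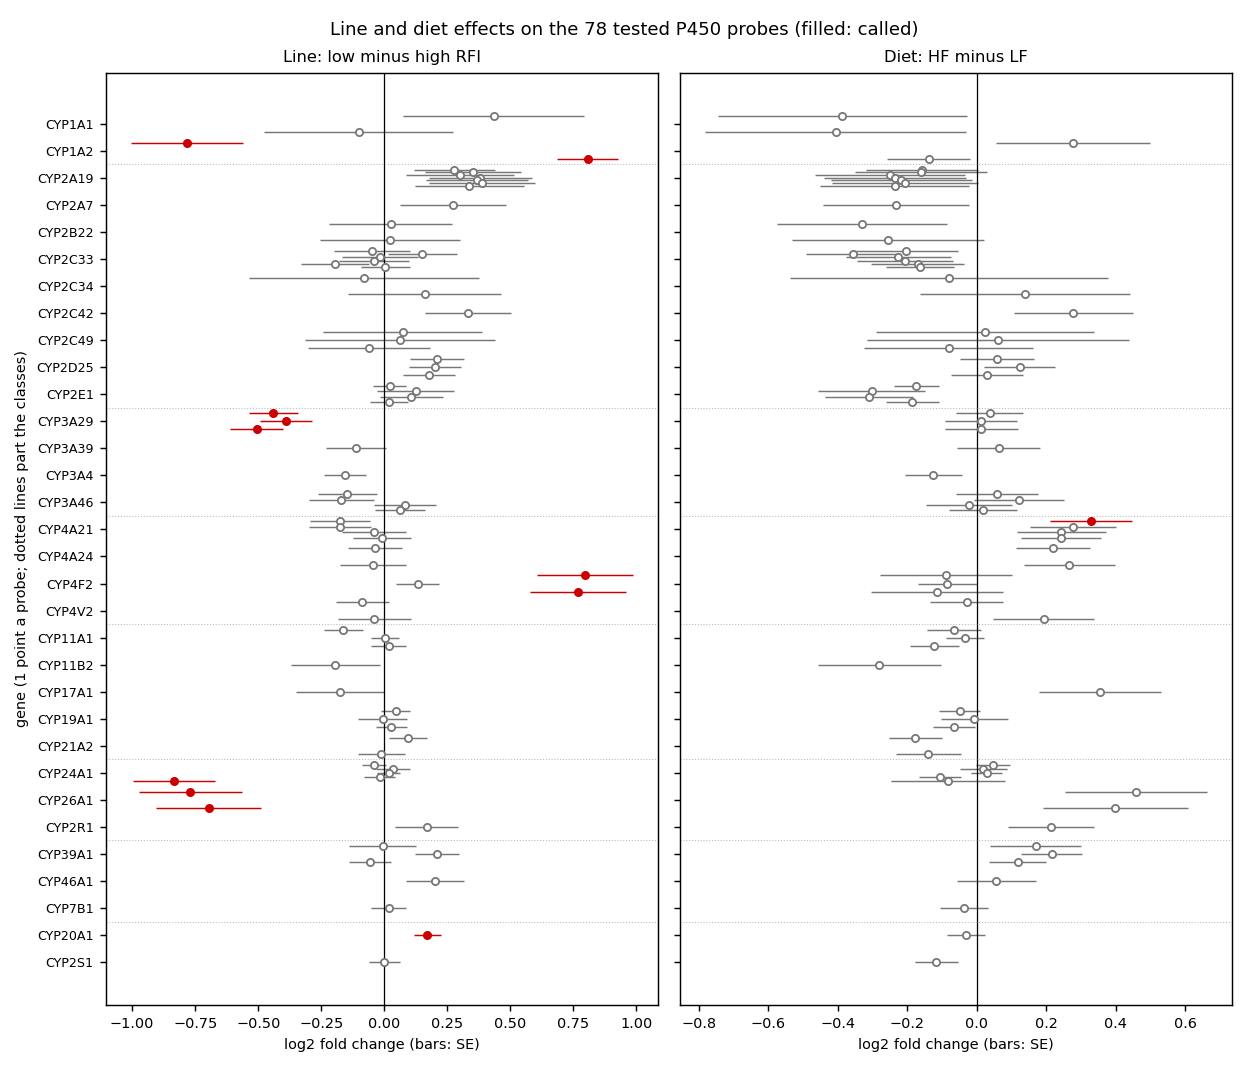
Differences of the 78 tested P450 probes on the log2 scale, line (low RFI minus high RFI, left) and diet (HF minus LF, right), with a row per gene and dotted lines between functional groups. Points are probes with bars for the SE, filled where called at P under 0.01 and FC above 1.1. Called probes sit in 5 of the 8 functional groups for line, and 1 probe, of CYP4A21, is called for diet.

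In family 1, the enzymes of planar aromatic compounds, both probes of CYP1A2 were called for line, in opposite directions. CYP1A2 oxidises caffeine and arylamines. Probe A_72_P758583 had 0.83 as its median in the low RFI line (lowest -0.45, highest 1.27) and -0.15 in the high RFI line (lowest -0.72, highest 0.70). The lines overlapped, and 22 of 24 low RFI pigs exceeded the high RFI median. The difference was 0.81 (SE 0.12, FC 1.75, P = 1.9e-08, BH-adjusted P = 1.3e-05 in limma). Probe A_72_P440936 had 3.09 as its median in the low RFI line (lowest 1.40, highest 4.32) and 3.73 in the high RFI line (lowest 1.63, highest 5.91). Here 19 of 24 low RFI pigs were under the high RFI median, and the overall lowest and highest pigs both received the LF diet. The difference was -0.78 (SE 0.22, FC 1.72, P = 0.000912, BH-adjusted P = 0.030 in limma). Each probe kept its direction on both diets, with 0.74 (HF) and 0.87 (LF) for the first and -0.68 and -0.88 for the second. The directions were also the same within each scan day, at 0.76 and 0.85 for the first probe and -0.79 and -0.78 for the second.

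Bases 16 to 45 of these 60-base probes are printed because 2 probes with 1 gene name went opposite ways. They share no run of 20 bases with each other, and A_72_P440936 carries a RefSeq transcript as its identifier whereas A_72_P758583 carries a cDNA clone.
CYP1A2 A_72_P440936: ctgagatacagaagaagatccagaaggagc
CYP1A2 A_72_P758583: agttggtactgatacctctgaggtagctag

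CYP1A1, which lies next to CYP1A2 with 0 protein-coding genes between them in the RefSeq annotation of Sscrofa11.1, is the enzyme most inducible through AHR. Its A_72_P223362 probe spanned 1.16 to 5.73 in the low RFI line (median 3.21) and 0.56 to 6.98 in the high RFI line (median 2.55). The lines overlapped almost wholly, and the difference of 0.43 (SE 0.36, 95% interval -0.29 to 1.16) was not called. The other CYP1A1 probe, A_72_P443804, differed by -0.10 (SE 0.38) and was not called. These probes followed each other across pigs after subtraction of the group means (r = 0.96, rho = 0.95, permutation P = 1e-05 for each, the smallest value that 100000 permutations can give). The CYP1A2 probes did not follow each other (r = -0.15, rho = -0.14, permutation P = 0.29 and 0.34). CYP1A2 A_72_P440936 followed the CYP1A1 probes (r = 0.44 and 0.54, BH-adjusted permutation P = 0.0040 and 0.00023 over 23 pairs of probes, rho = 0.31 and 0.43 with BH-adjusted P = 0.060 and 0.0063). Without the 2 pigs farthest from the median these r were 0.31 and 0.44, and within the scan days 0.45 and 0.40 for the first pair and 0.57 and 0.48 for the second. CYP1A2 A_72_P758583 had r of -0.09 and -0.16 with the same CYP1A1 probes (permutation P = 0.56 and 0.26).

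**Figure D2:**
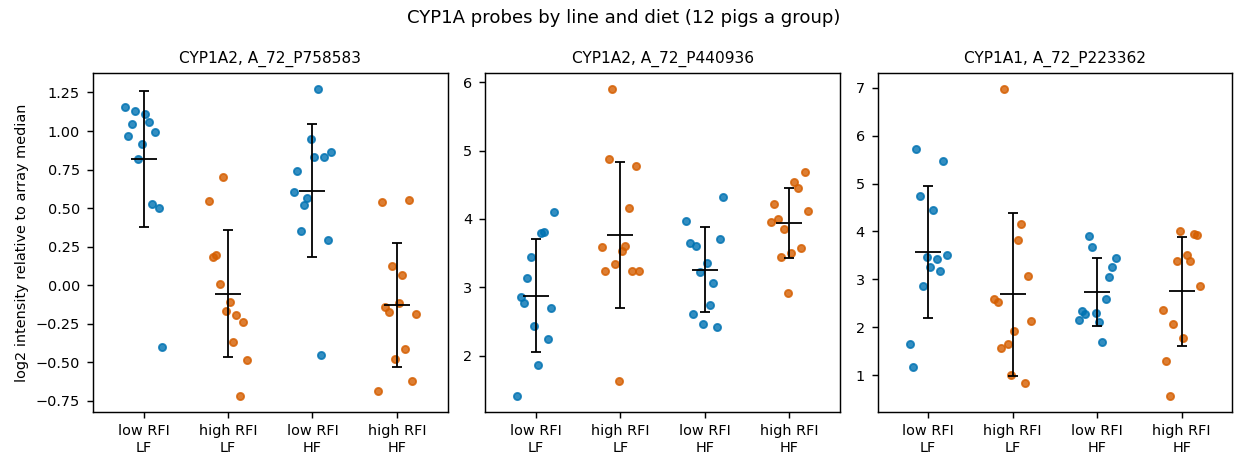
Log2 relative intensity of the CYP1A2 probes and of 1 CYP1A1 probe in the 4 groups of 12 pigs. Each point is a pig, and bars give the mean and SD. The low RFI groups are the higher for CYP1A2 A_72_P758583 and the lower for CYP1A2 A_72_P440936, and the groups overlap for CYP1A1.

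In CYP3A, the subfamily that oxidises a wide range of drugs and steroids, all 3 probes of CYP3A29 were lower in the low RFI line, and none of the other 6 CYP3A probes was called. Probe A_72_P797432 had 6.55 as its median in the low RFI line (lowest 5.78, highest 7.50) and 7.02 in the high RFI line (lowest 6.45, highest 7.52). Of 24 low RFI pigs, 23 lay below the high RFI median and 11 below the lowest high RFI pig. The difference was -0.51 (SE 0.11, FC 1.42, P = 1.6e-05, BH-adjusted P = 0.0016 in limma). A_72_P088491 differed by -0.44 (SE 0.10, BH-adjusted P = 0.0033 in limma), with 21 of 24 low RFI pigs below the high RFI median. A_72_P755349 differed by -0.39 (SE 0.10, BH-adjusted P = 0.018 in limma), with 19 of 24 below. Between pigs of the same group the 3 probes went together, with r from 0.81 to 0.93 and rho from 0.79 to 0.93 (permutation P = 1e-05 for each pair). Within the scan days, the differences were -0.33 to -0.45 on the first and -0.45 to -0.56 on the second.

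A_72_P755349 and A_72_P797432 overlap in 48 bases and thus read 1 place of the transcript, whereas A_72_P088491 reads another. The windows below show this, capitals marking bases inside the shared run, from base 13 of the first probe and base 2 of the second.
CYP3A29 A_72_P755349: AAGAAACACAGATCCCCCTGAAATTAACCA
CYP3A29 A_72_P797432: AAGAAACACAGATCCCCCTGAAATTAACCA
CYP3A29 A_72_P088491: atcagaaatatagtggagactgaagtggtg

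CYP3A46, the neighbour of CYP3A29 with 0 protein-coding genes between them, had 4 probes with line differences of -0.17 to 0.08 (P = 0.20 to 0.53). The single CYP3A39 probe differed by -0.11 (SE 0.12, 95% interval -0.35 to 0.13). That named CYP3A4, whose identifier is the human transcript, differed by -0.16 (SE 0.08, 95% interval -0.32 to 0.01). Within the scan days, the CYP3A39 probe differed by 0.11 and -0.34 (limma P = 0.50 and 0.026) and the CYP3A4 probe by -0.18 and -0.13. The CYP3A46 probes differed by 0.01 to 0.12 on the first scan day and by -0.37 to 0.10 on the second. Whether CYP3A29 differed from these relatives in its response to line was not tested.

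Among the fatty acid and eicosanoid enzymes, CYP4F2 was higher in the low RFI line through 2 of its 3 probes. It hydroxylates long-chain fatty acids, arachidonic acid and the side chains of vitamins E and K at their end. Probe A_72_P224042 had 4.39 as its median in the low RFI line (lowest 3.22, highest 5.19) and 3.88 in the high RFI line (lowest 1.86, highest 5.02). All pigs under 3.22 were from the high RFI line, and 22 of 24 low RFI pigs lay above its median. The difference was 0.80 (SE 0.19, FC 1.74, P = 0.000124, BH-adjusted P = 0.0071 in limma), and 0.77 (SE 0.19, BH-adjusted P = 0.010 in limma) for A_72_P444021. These probes share 55 of 60 bases and count as 1 reading (r = 0.99, rho = 0.98, permutation P = 1e-05 for each). The third probe, A_72_P407388, was dim and differed by 0.13 (SE 0.09, 95% interval -0.04 to 0.31), and it followed neither of them (r = 0.20 and 0.18, rho = 0.18 and 0.15, permutation P = 0.17 to 0.30). On A_72_P224042 the difference was 1.15 within the first scan day and 0.44 (limma P = 0.060) within the second.

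The windows of the 3 CYP4F2 probes are printed to show that the called probes lie at 1 place, with capitals for bases inside their shared run, from base 1 of A_72_P224042 and base 6 of A_72_P444021.
CYP4F2 A_72_P224042: TACCATCCCCATACTTGCGCAGATTCCCAG
CYP4F2 A_72_P444021: TACCATCCCCATACTTGCGCAGATTCCCAG
CYP4F2 A_72_P407388: ttgccatggaagaaaatgcatgtaacaaaa

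The 4 probes of CYP4A21 and both of CYP4A24, enzymes that hydroxylate medium- and long-chain fatty acids, were not called for line and differed by -0.18 to -0.01. The CYP4V2 probes, another fatty acid hydroxylase, differed by -0.09 and -0.04 and were not called either.

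Both enzymes that inactivate vitamin-derived hormones had probes that were lower in the low RFI line. CYP26A1 breaks down retinoic acid and is itself induced by it. Its A_72_P042956 probe had 0.02 as its median in the low RFI line (lowest -1.77, highest 1.49) and 0.76 in the high RFI line (lowest -0.97, highest 1.80). The lines overlapped, with 18 of 24 low RFI pigs below the high RFI median. The difference was -0.77 (SE 0.20, FC 1.70, P = 0.000471, BH-adjusted P = 0.019 in limma). The other probe, O885, differed by -0.70 (SE 0.21, BH-adjusted P = 0.045 in limma) and followed the first across pigs (r = 0.98, rho = 0.97, permutation P = 1e-05 for each), although they share no run of 20 bases. Within the scan days A_72_P042956 differed by -0.52 and -1.01.

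CYP24A1 starts the breakdown of active vitamin D and is best known from kidney. Its O2538 probe had 2.19 as its median in the low RFI line (lowest -0.25, highest 2.83) and 2.76 in the high RFI line (lowest 2.46, highest 3.18). In the low RFI line 23 of 24 pigs lay below the high RFI median, and 15 lay below the lowest pig of the high RFI line. The SD over pigs was 0.78 in the low RFI line and 0.20 in the high RFI line. The difference was -0.83 (SE 0.16, FC 1.78, P = 6.1e-06, BH-adjusted P = 0.00087 in limma), and it was -0.55 and -1.12 within the scan days. None of the other 4 CYP24A1 probes was called. They differed between lines by -0.04 to 0.04 (P = 0.42 to 0.77). Across pigs of the same group, O2538 had r of -0.03 to 0.24 with them, and 0 of these 4 r had a BH-adjusted permutation P below 0.05. By rank, it followed A_72_P763826 (rho = 0.35, permutation P = 0.015, BH-adjusted P = 0.031), the other rho being 0.10 to 0.23. With A_72_P496322, r was 0.13 over all pigs, 0.34 without the 2 farthest pigs, and 0.54 and 0.10 within the scan days. Of these 4, A_72_P763826 shares 30 bases with a probe of ITGB3, an integrin subunit, and A_72_P088422 and A_72_P293394 also share runs of at least 20 bases with probes not named for CYP24A1.

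The CYP24A1 and CYP26A1 windows are given so that disagreeing and agreeing probes can be told apart by sequence. CYP24A1 A_72_P293394 is not printed. Capitals mark the run of 23 bases that A_72_P088422 and A_72_P496322 share.
CYP24A1 O2538: ttgaaaggcactcctgaccctctgccagtc
CYP24A1 A_72_P088422: ATTTCAGGAAGTATTCTGATGACgtcaaaa
CYP24A1 A_72_P496322: ATTTCAGGAAGTATTCTGATGACatcgaaa
CYP24A1 A_72_P763826: ggttaatgatctggcgttgccgtgagctgt
CYP26A1 A_72_P042956: caaaatatttacagtggagctggccaggca
CYP26A1 O885: ccacagcctttaaatctgaaaataatgaat

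CYP20A1, a P450 without an established substrate, had 1 probe, with a median of 1.20 in the low RFI line (lowest 0.87, highest 1.65) and 1.07 in the high RFI line (lowest 0.77, highest 1.45). The lines overlapped widely, with 20 of 24 low RFI pigs above the high RFI median. The difference was 0.17 (SE 0.05, FC 1.13, P = 0.0029, BH-adjusted P = 0.065 in limma), so that it was called without passing the BH limit. Within the scan days it was 0.12 and 0.22.

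**Figure D3:**
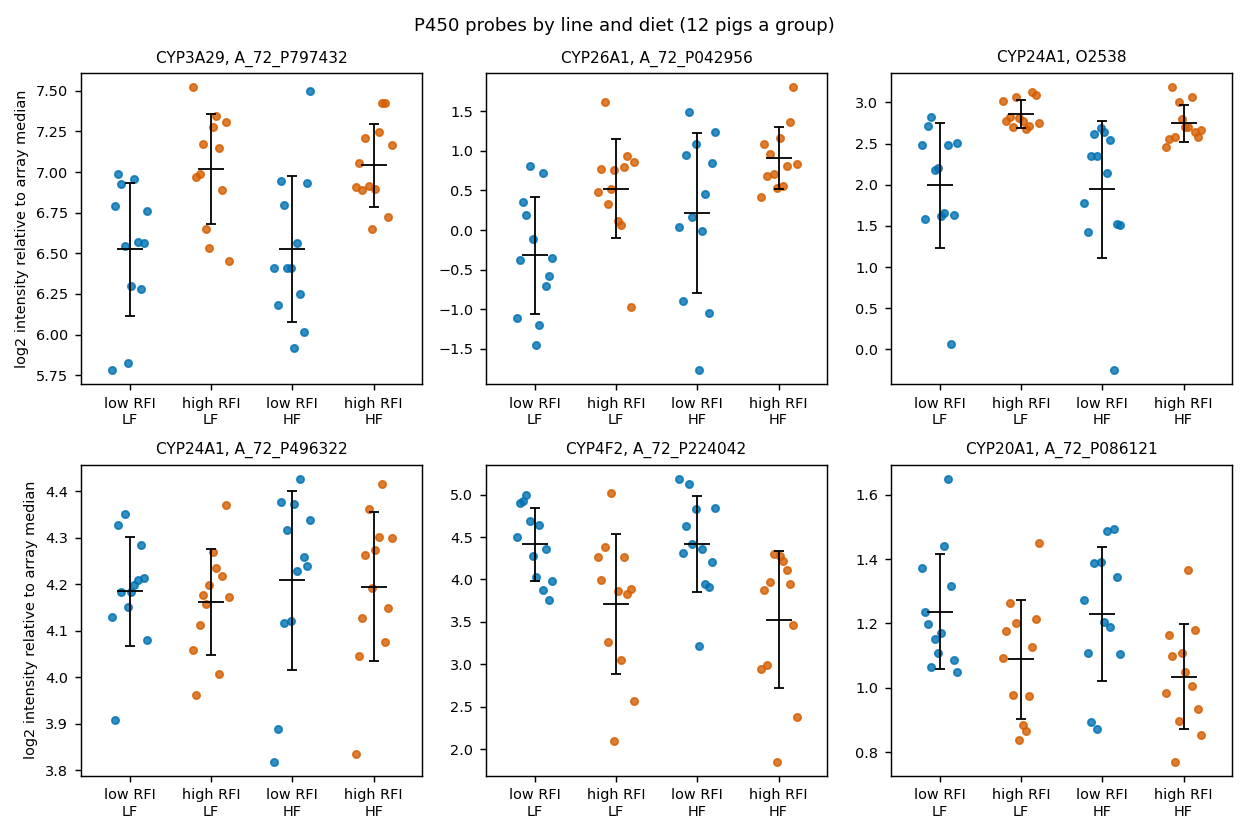
Log2 relative intensity of 1 probe each of CYP3A29, CYP26A1, CYP4F2 and CYP20A1 and of 2 probes of CYP24A1 in the 4 groups of 12 pigs, with points for pigs and bars for mean and SD. The means of CYP3A29, CYP26A1 and CYP24A1 O2538 are lower in the low RFI groups on both diets and those of CYP4F2 and CYP20A1 higher, whereas the groups overlap for CYP24A1 A_72_P496322.

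The CYP2A, CYP2B, CYP2C, CYP2D and CYP2E subfamilies held 29 tested probes of 9 genes, and 0 were called for line. Of the 29 differences 23 were positive (median 0.12), against 23727 of all 45236 tested probes. Probes of 1 gene are not separate readings, and all 7 of CYP2A19 were among the positive ones. CYP2A19, the porcine enzyme of coumarin and skatole, had 7 probes with differences of 0.28 to 0.39 (P = 0.069 to 0.17). One of them has the same 60 bases as the probe named CYP2A7, which differed by 0.27 (SE 0.21). CYP2D25, which can hydroxylate vitamin D in pig liver, had 3 probes with differences of 0.18 to 0.21 (P = 0.054 to 0.090). CYP2E1, the ethanol and ketone oxidising enzyme, had 4 probes with differences of 0.02 to 0.12, the 95% interval of A_72_P165451 running from -0.11 to 0.15. The CYP2B22 probes, of a subfamily known as a CAR target, differed by 0.02 and 0.03 with wide intervals (-0.47 to 0.52 for A_72_P185176). CYP2C42 differed by 0.33 (P = 0.058), with -0.02 within the first scan day and 0.68 (limma P = 0.0013) within the second.

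CYP2C34 and CYP2C49, porcine members of the CYP2C subfamily, spread over pigs more than most genes and with no call for line, diet or interaction. Probe A_72_P292173 of CYP2C34 ran from -0.81 to 5.21. Its within-group SD was at the 98.6th percentile of all tested probes. The widest gap of this probe in the middle of the range lay between 2.33 and 2.82, with 29 pigs below and 19 above. Pigs above the gap came from all 4 groups, 2 of the low RFI and 6 of the high RFI pigs on HF, and 6 of the low RFI and 5 of the high RFI pigs on LF. For CYP2C49 A_72_P496311, which ran from 0.98 to 6.72, the widest gap also had 19 pigs above it, and 46 of the 48 pigs lay on the same side as for CYP2C34. The other CYP2C49 probes placed the gap elsewhere, with 26 pigs above it for A_72_P146661 (41 of 48 on the same side) and 14 for A_72_P523435 (43 of 48). The probes of both genes share no run of 20 bases, but the scanner annotation gives 2 of the 3 CYP2C49 probes a transcript that also names 1 CYP2C34 probe, so the 2 genes' signals may not be separate. In the RefSeq annotation 2 protein-coding genes lie between them. The gap was chosen after the values were seen and has no test.

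**Figure D4:**
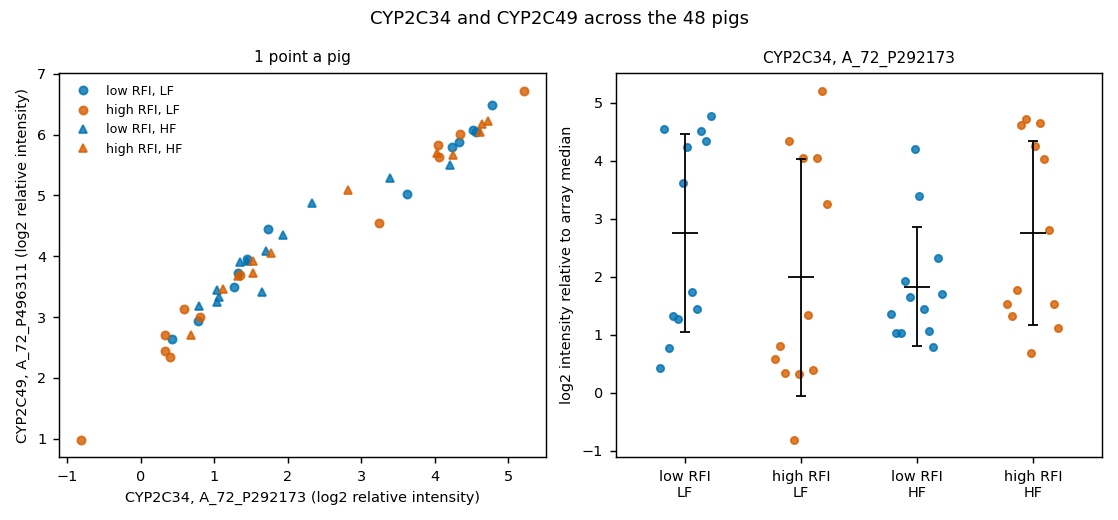
Left, log2 relative intensity of CYP2C49 A_72_P496311 against CYP2C34 A_72_P292173, 1 point per pig and a mark per group. Right, CYP2C34 A_72_P292173 in the 4 groups of 12 pigs with mean and SD. Both probes rise together from the lowest to the highest pig, and each group holds pigs on both sides of the gap between 2.33 and 2.82.

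The remaining groups of P450 genes had 0 probes called for line. Steroid hormone synthesis held 10 tested probes of CYP11A1, CYP11B2, CYP17A1, CYP19A1 and CYP21A2, and the oxysterol enzymes CYP7B1, CYP39A1 and CYP46A1 held 5. The CYP39A1 probes differed by -0.06 to 0.21, and the CYP7B1 probe by 0.02 (SE 0.07). The CYP46A1 probe, whose difference was 0.20 (SE 0.11), shares 55 bases with a probe of another gene name. CYP2R1, a vitamin D 25-hydroxylase, differed by 0.17 (SE 0.13), and CYP2S1 by -0.00019 (SE 0.06), neither being called.

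For diet, 4.61% of all tested probes (2.07% higher and 2.54% lower on HF) and 1 of the 78 P450 probes (1.28%) were called. The called probe was A_72_P440871 of CYP4A21, an enzyme of a subfamily known to be induced through PPARA. Its median was 3.46 on HF (lowest 2.82, highest 4.26) and 3.19 on LF (lowest 1.85, highest 3.99). The diets overlapped, with 20 of 24 HF pigs above the LF median. The difference was 0.33 (SE 0.12, FC 1.26, P = 0.0076, BH-adjusted P = 0.18 in limma), with 0.47 and 0.19 within the scan days. The other 3 CYP4A21 probes and both CYP4A24 probes had diet differences of 0.22 to 0.28 (P = 0.030 to 0.063) and were not called. The annotation gives 2 probes of each of these genes shared transcripts. The called probe shares a run of 36 bases with A_72_P442994 of CYP4A21. The 6 probes are therefore not 6 separate readings.

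CYP2E1 had diet differences of -0.17 to -0.31 on its 4 probes (P = 0.011 to 0.053), and none was called. O1065 and A_72_P165451 have identical sequences. On A_72_P594384, the median was 8.63 on HF (lowest 7.39, highest 9.15) and 8.99 on LF (lowest 7.92, highest 9.38). The ranges overlapped, but 23 of 24 HF pigs lay below the LF median, and the difference was -0.31 (SE 0.13, P = 0.018, BH-adjusted P = 0.24 in limma). The 6 CYP2C33 probes had diet differences of -0.36 to -0.16 (P = 0.012 to 0.21), the CYP26A1 probes 0.46 and 0.40 (P = 0.029 and 0.062), and the CYP3A29 probes 0.01 to 0.04. At an unadjusted P under 0.05, 13 P450 probes differed between diets, against 14.4% of all tested probes. No P450 probe passed the BH limit of 5%, which 0.455% of all tested probes passed. The median diet difference was -0.04 over the P450 probes and -0.01 over all tested probes.

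**Figure D5:**
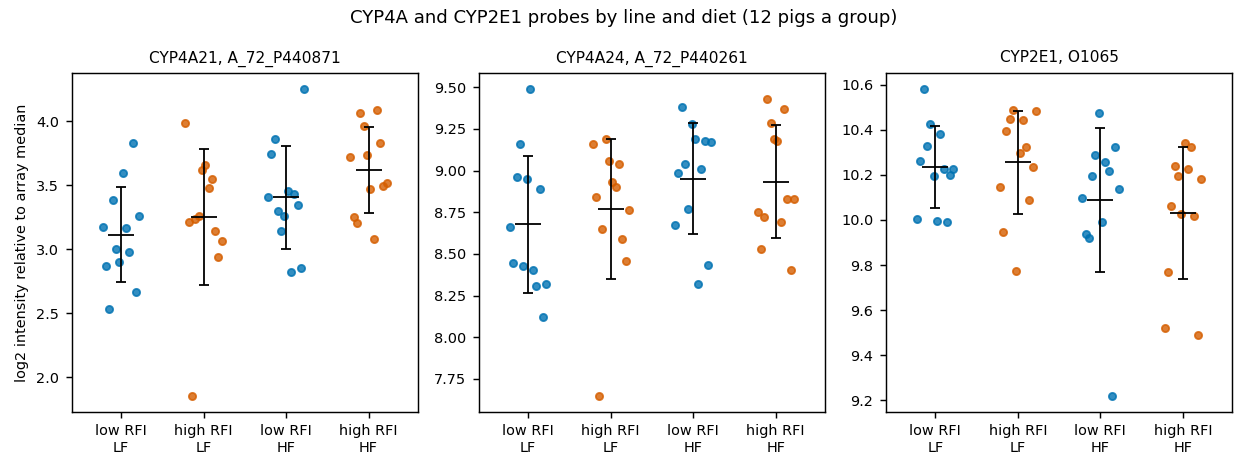
Log2 relative intensity of 1 probe each of CYP4A21, CYP4A24 and CYP2E1 in the 4 groups of 12 pigs, with points for pigs and bars for mean and SD. HF groups have the higher means for CYP4A21 and CYP4A24 and the lower for CYP2E1, with wide overlap, and of these 3 probes only that of CYP4A21 was called.

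The interaction asked whether the line difference depended on the diet. It was called for 0 of the 78 P450 probes in limma, against 0.376% of all tested probes, and 0 probes of the array passed the BH limit. At an unadjusted P under 0.05 there were 3 P450 probes, against 2.37% of all tested probes, named here after their values were seen. CYP2C33 A_72_P252252 had a line difference of -0.15 on HF and 0.46 on LF (P = 0.030). CYP2C49 A_72_P523435 had -0.56 and 0.44 (P = 0.047), and CYP19A1 A_72_P232317, the aromatase, -0.24 and 0.23 (P = 0.019). None of these 3 passed the BH limit. The CYP19A1 probes disagreed, with interactions from -0.47 on A_72_P232317 to 0.10 on A_72_P641224, which has the same sequence as A_72_P173936. A_72_P232317 was also dim, with group means of -3.63 to -3.38.

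Of 47 genes listed as partners and regulators of P450 enzymes, 39 had a tested probe, with 29 probes of electron donors, 16 of heme synthesis, 9 of heme breakdown and 53 of regulators. For line, 11 of these probes were called (10.3%), 8 higher and 3 lower in the low RFI line, against 6.91% of all tested probes. The called probes belonged to 7 genes, and a gene with several probes has more chances of a call. Among the electron donors, PGRMC2, a heme-binding P450 partner, was higher in the low RFI line on 4 of 5 probes (0.29 to 0.37). FDX1, the mitochondrial ferredoxin, was higher on 2 of 3 probes (0.21 and 0.23). CYB5B, the cytochrome b5 of the outer mitochondrial membrane, was lower on 1 of 2 probes (-0.41, SE 0.12, BH-adjusted P = 0.036 in limma). Among the regulators, RXRB (0.19) and ONECUT1 (0.17) were higher and PPARA (-0.37) and CEBPB (-0.29) lower on 1 probe each, and their other probes were not called. In the authors' own liver microarray and qPCR values, low RFI pigs had lower CEBPB but slightly higher PPARA. The called PPARA probe thus went the other way from those PPARA values. NR1I2, AHR, POR and CYB5A had 0 probes called for line, and the single NR1I3 probe differed by -0.11 (SE 0.06, P = 0.10). For diet, 9 of these probes were called (8.41%), 8 higher and 1 lower on HF, against 4.61% of all tested probes, and they belonged to 5 genes. NR1H4, the bile acid receptor FXR, was higher on HF on 3 of 3 probes (0.16 to 0.25), NFE2L2 on 2 of 3 (0.25 and 0.28), ARNT, the partner of AHR, on 2 of 4 (0.17 and 0.22) and PPARA on 1 of 3 (0.40). ALAD, an enzyme of heme synthesis, was lower on HF (-0.20, BH-adjusted P = 0.038 in limma). With the BH limit of 5%, only 2 of the partner and regulator genes were called for line and 3 for diet.

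Across pigs, the probe of highest mean intensity of each of the 32 genes was compared with NR1I2, NR1I3, AHR and POR after subtraction of the group means. This took A_72_P763826 for CYP24A1 and A_72_P440936 for CYP1A2, so the called probes O2538 and A_72_P758583 were not compared. Of 128 pairs, 3 had a BH-adjusted permutation P below 0.05 for r, all with POR, the main electron donor. Pigs were permuted over all groups without allowance for the subtracted means, so these P values tend to be too small. CYP1A2 A_72_P440936 went down as POR went up (r = -0.52, BH-adjusted P = 0.018, rho = -0.44, BH-adjusted P = 0.071). CYP4A21 A_72_P710633 and CYP4A24 A_72_P440261 went up with POR (r = 0.46 for both, BH-adjusted P = 0.040, rho = 0.50 and 0.47, BH-adjusted P = 0.043). These CYP4A probes share a run of 24 bases, so they are not separate readings. Without the 2 pigs farthest from the POR median, r was -0.40, 0.43 and 0.44, and 0 of the 128 pairs passed. Within the scan days, r was -0.75 and -0.16 for CYP1A2, 0.58 and 0.32 for CYP4A21, and 0.56 and 0.34 for CYP4A24. For CYP1A2 the relation with POR thus did not hold within the second scan day. Arrays share RNA quality and depth of signal, which enter all probes of a pig.

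Markers of liver zones and cell types were read beside these results. Calls in these lists stand beside 6.91% of all tested probes called for line, 4.61% for diet and 0.376% for the interaction. GLUL, the glutamine synthetase of hepatocytes around the central vein, was lower in the low RFI line on 5 of 7 probes (-0.33 to -0.43). No other of the 7 perivenous genes tested (34 probes in all) and none of 8 periportal genes (22 probes) were called for line. The mean over the perivenous genes ran from 1.71 to 3.01 in the low RFI line and from 1.84 to 3.28 in the high RFI line, so the lines overlapped. The mean over 7 hepatocyte genes ran from 9.76 to 10.25 in the low and from 9.65 to 10.19 in the high RFI line. APOA1 was higher in the low RFI line on 4 probes, the only line calls among the 40 probes of the list. Of 6 Kupffer cell genes, C1QA and VSIG4 were lower in the low RFI line on 3 of the list's 20 probes. None of the 3 was the brightest probe of its gene. The list means were 2.34 to 3.43 in the low and 2.53 to 3.50 in the high RFI line. Among the 22 bile duct probes, 1 each of KRT7 and EPCAM were lower in the low RFI line. Over the brightest probe of each of the 4 bile duct genes, the line difference ran from -0.35 to 0.40, with 1 called lower and 0 higher. Among the 20 stellate probes, 2 of RGS5 were higher, and the T and NK cell and endothelial lists had 0 calls for line. Markers also moved with diet. ALB, the plasma albumin of hepatocytes, was lower on HF on 7 of 21 probes (-0.26 to -0.14), and the hepatocyte mean ran from 9.65 to 10.24 on HF and from 9.88 to 10.25 on LF. EPCAM of the bile duct list was higher on HF on 5 of 18 probes (0.35 to 0.43), with list means of -1.74 to 0.13 on HF and -1.59 to -0.21 on LF. LUM of the stellate list was lower on HF on 3 of 11 probes (-0.24 to -0.21), with list means of 2.20 to 3.31 on HF and 2.05 to 3.22 on LF. Of the perivenous genes, TBX3 was higher on HF on 3 of 6 probes (0.34 to 0.38) and LGR5 lower on its only probe (-0.64). Of the 22 periportal probes, 1 was called for diet, lower on HF. The Kupffer cell, T and NK cell and endothelial lists had 0 calls for diet. For the interaction, 4 perivenous probes were called, 3 of 6 of TBX3 and 1 of 2 of ZNRF3 (0.51 to 0.74), and none of the other marker lists had a call. No marker called for diet or interaction passed the BH limit. The part of these markers in the P450 differences between lines or diets was not tested.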

How the data were processed

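Liver RNA of 48 pigs was hybridised in 1 colour (Cy3) on a custom porcine Agilent array, with 1 array per pig. The authors deposited the scanner output (Agilent Feature Extraction 10.7.3.1 per the submitters' processing notes), whose intensity values are background-subtracted and not normalized between arrays. A deposited table of log2 values, median-centred by the authors, holds 72 of the P450 probes and served as an alternative: each of its columns had a median of 0 and a slope of 1 on the log2 median intensity. Probe coordinates and a genome build are not given in the sources used here, and gene names are those of the array design. RefSeq (Sscrofa11.1) gave names and neighbours only: 28 of the 38 P450 symbols were listed there.

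Control spots were left out, 483 spots with outlier flags (1 of a P450 probe) were set to missing, 0 spots were saturated, and spots of a probe were averaged. From each log2 intensity the array median of the tested probes was subtracted, tested probes being those well above background on at least 12 arrays (65.8 to 77.2% of probes were so per array). The number of arrays limits the precision. limma 3.58.1 (R 4.3.3) fitted line, diet and their interaction to all 45236 tested probes, in place of the authors' two-way ANOVA, which was run as an alternative. Calls needed P under 0.01 and FC above 1.1, and BH adjustment ran over all tested probes. Line is low RFI minus high RFI averaged over diets, and diet is HF minus LF averaged over lines. The fit was tested on simulated data. Correlations used values minus group means and 100000 permutations, two-sided.

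Named genes were all P450 genes with a called probe, the 10 brightest, a short list of well-known members, and called partner genes. The P450 members and all gene lists were chosen with earlier results of these data known. Alternatives covered centring, normalization, background, probe filter, outlier spots, slide, scan day, call rule and model.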

Additional observations from a re-analysis of the deposited data

How the results depend on the processing

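The 11 P450 calls for line kept their direction under all 15 alternatives run, and 11 were called under 12 of them. Within the first scan day alone, with 24 pigs, 6 P450 probes were called for line, and within the second 9 were, 8 of them among the 11 and the other being CYP2C42. With the BH limit 10 were called. For diet, quantile normalization gave 3 P450 calls (CYP4A24 A_72_P440261 and CYP4A21 A_72_P710633 in addition), slide as a block 2 (CYP2E1 A_72_P165451 in addition) and the BH limit 0. The scan days gave 1 diet call each, of CYP1A2 A_72_P758583 on the first and CYP2C42 on the second, and CYP4A21 A_72_P440871 was called on neither. The interaction had 2 calls within the second scan day, both of CYP3A46. Partner and regulator genes called for line numbered 3 and 1 within the scan days and 2 with the BH limit, and for diet 0 within the first scan day and 3 with the BH limit. Of the pairs with regulators, 0 passed with values not centred on the groups, 1 within the first scan day, 0 within the second and 0 without the 2 farthest pigs. Scan days hold fewer pigs, and the cause of the other changes was not tested. Quantile normalization moved the share of higher calls among all diet calls from 44.9 to 51.8%, and no scaling moved the median of all probes by over 0.1. No paired analysis was possible because the labels give all pigs of a group the same replicate number.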
